A study of Mus musculus with 2 samples.

Results

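The 10 genes described here make, load and carry the peptide complexes of major histocompatibility complex (MHC) class I: B2m, H2-K1, H2-D1, Tap1, Tap2, Tapbp, Psmb8, Psmb10, Psme1 and Psme2. They were followed by name in 2 single-cell RNA libraries of sorted mouse glioma cells, and all 10 were listed in both, out of 18366 gene symbols listed in either library and 16859 in both. The tumours were raised in C57BL/6 mice by delivering PDGFB, a ligand of the receptor Pdgfra, to the ventricular wall of the embryonic brain before birth, and they were taken about 40 days after birth. Cells were dissociated, enriched by GFP sorting and combined from 2 tumours per library, here pool 1 and pool 2, with 4000 cells loaded for each. All cells share the strain, the oncogene and the GFP gate, and no untransformed or untreated sample was among the samples analysed here, so that every comparison below is between cells within the pools. Which vector or promoter drives PDGFB and GFP is not given in the sources used here.

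Class I molecules show fragments of a cell's own proteins to CD8 T cells and are sensed by natural killer cells. Proteasomes cut the proteins, and in cells exposed to interferon the immune subunits Psmb8, Psmb9 and Psmb10 take the places of the constitutive subunits Psmb5, Psmb6 and Psmb7. The PA28 activator, built of Psme1 and Psme2, opens the proteasome's gate. The transporter Tap1/Tap2 moves peptides into the endoplasmic reticulum, tapasin (Tapbp) holds an empty class I molecule beside it, and the loaded molecule leaves as a heavy chain (H2-K1 or H2-D1) bound to the light chain B2m. Neurons and glia of the healthy brain are known for low class I expression, microglia for a higher one, and interferons raise the whole set.

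By the GENCODE vM21 annotation of GRCm38, 6 of the 10 lie in the MHC region of chromosome 17. They are Tapbp at chr17:33915899-33929292, H2-K1 at chr17:33996017-34000347, Tap1 at chr17:34187553-34197225, Psmb8 at chr17:34197721-34201454, Tap2 at chr17:34203527-34216321 and H2-D1 at chr17:35262730-35267499. Tap1, Psmb8 and Tap2 form a tight row with Psmb9, which starts on the opposite strand inside the annotated span of Tap1; the 4 genes fill 34335 bases. B2m stands alone at chr2:122147686-122153083 and Psmb10 at chr8:105935735-105938444. Psme1 at chr14:55578123-55581529 and Psme2 at chr14:55587441-55591113 are neighbours within 12991 bases. The deposited counts come from the 3′ ends of transcripts, and how reads were assigned to overlapping or similar genes is not given in the sources used here. Of the 50-base words in the last 500 bases of Psme2's annotated transcripts, 32.1% also occur in its close copies Psme2b and Gm7928. The share was 18.8% for H2-D1 and 11.8% for H2-K1, mostly with other class I heavy chains, 8.03% for Psme1, and 2.15% or less for the other 6, so that values of Psme2 and the heavy chains carry that uncertainty.

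Class I genes are textbook targets of interferon-driven factors, and later results turn on an interferon state, so their promoters were searched for 3 motifs. RefSeq promoter windows (GRCm38.p6, 250 bases before to 50 after the start site) were at hand for 9 of the 10 genes. The interferon-stimulated response element, searched on both strands as TTTC, any 2 bases, and TTTC again, was in 2 of the 9 (B2m and Psme1) and in 3.44% of all 32851 windows. The gamma-activated site, TTCNNNGAA, which reads the same on both strands, was in 1 of the 9 (Psmb8) and in 8.3% of windows. The CCAAT box, CCAAT on either strand, was in 5 of the 9 (B2m, H2-K1, H2-D1, Tap1 and Tapbp) and in 37.4% of windows. A match describes letters only. The stretches below are printed on the gene's strand with the matched letters in capitals, because these 5 genes were the ones called in interferon-high cells.
B2m, chr2:122147527-122147667 plus strand, response element and CCAAT box: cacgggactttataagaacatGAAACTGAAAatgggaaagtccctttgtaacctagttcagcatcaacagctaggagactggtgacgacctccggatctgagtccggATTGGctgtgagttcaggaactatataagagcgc
Psme1, chr14:55578493-55578522 plus strand, response element: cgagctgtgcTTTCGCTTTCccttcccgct
Psmb8, chr17:34198088-34198117 plus strand, gamma-activated site: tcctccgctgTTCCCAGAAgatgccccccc
H2-K1, chr17:34000346-34000375 minus strand, CCAAT box: gctcttacccccATTGGgtggcgcgatcac
H2-D1, chr17:35263006-35263035 plus strand, CCAAT box: ggtctcactatcATTGGgtggcgagattcc
In B2m both matches are reverse complements of the searched letters. The heavy chain windows resemble each other: laid over each other without gaps and shifted by 60 bases, H2-K1 and H2-D1 had the same base at 176 of 240 positions (73.3%). The printed stretches of Psme1, Psmb8, H2-K1 and H2-D1 meet at least 1 annotated exon, and that of B2m meets none.

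Pool 1 held 3843 barcodes with 33.9 M unique molecular identifiers (UMIs, counts of captured RNA molecules), and pool 2 held 3650 barcodes with 40.9 M. Barcodes were kept if they showed 500 genes or more and mitochondrial UMIs did not exceed 15%, which left 3506 and 3278 cells with medians of 7440 and 11272 UMIs. The pools shared 4 barcodes. Xist, the RNA of the inactive X chromosome, had UMIs in 91.44% of pool 1 cells and was not listed in pool 2, while 4 Y-linked genes were listed in pool 2 alone, with UMIs in 66.47% of its cells. Sex, tumours and capture therefore cannot be told apart between the pools, and the tumours within a pool could not be separated. Rebuilt clusters numbered 0 to 8 by size were glial: summed markers of oligodendrocyte precursors, the normal cells these gliomas resemble, stood between 6512 and 16890 CPM (counts per 1000000 UMIs), and T and natural killer cell markers at 0.984 CPM or less. Cluster 9 was microglia-like (15 and 16 cells), cluster 10 oligodendrocyte-like and cluster 11 astrocyte-like (24 and 14 cells over both pools). Clusters 0 and 4 were shallow, with median depths of 3373.5 and 2886 UMIs in cluster 0 and 1653 and 1570 in cluster 4. Cluster 0 also had high Malat1, a nuclear RNA, at 99082 and 109268 CPM, and 4.87% and 4.47% mitochondrial UMIs.

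All 10 genes were detected in both tumour pools, at levels from 5.73 to 170 CPM. The light chain B2m stood at 153 CPM in pool 1 (95% Poisson interval 149 to 157.4) and at 170 CPM in pool 2 (166 to 174). The heavy chain H2-K1 was at 30.7 and 32.6 CPM, and H2-D1 at 89.3 and 85.8 CPM. The transporter gene Tap1 was at 8.11 and 5.73 CPM, Tap2 at 22.5 and 18.2 CPM, and the chaperone Tapbp at 9.75 and 7.81 CPM. These 3 genes of peptide transport and loading were the ones whose ratio lay under 1 with its whole interval: the ratio of pool 2 to pool 1 was 0.707 for Tap1 (0.591 to 0.846), 0.808 for Tap2 (0.729 to 0.896) and 0.801 for Tapbp (0.684 to 0.937). Intervals cover counting error only, and with 1 library of each kind there is no test.

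The immune subunit Psmb8 was at 12.1 and 13.6 CPM and Psmb10 at 41.5 and 48.3 CPM, and the activator genes were at 62.1 and 72.2 CPM (Psme1) and 50.4 and 49.0 CPM (Psme2). Psmb10, Psme1 and B2m were higher in pool 2, with ratios of 1.16 (1.08 to 1.25), 1.16 (1.10 to 1.23) and 1.11 (1.07 to 1.15). For the heavy chains, Psmb8 and Psme2 the interval of the ratio included 1. Together the 10 genes made up 480 CPM in pool 1 and 503 CPM in pool 2 (mean 492 ± 16.8, SD, n = 2 pools).

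When each cell was thinned to 2000 UMIs so that depth was equal, 53.0% of cells in pool 1 (51.2% to 54.7%, exact Clopper-Pearson) and 57.7% in pool 2 (55.9% to 59.5%) had a UMI of any of the 10. This left out 389 and 404 shallower cells. The unthinned shares were 77.5% and 83.1%. For B2m alone the thinned shares were 23.3% and 25.7%, and for Tap1 1.25% and 1.04%. Of the glial cells so thinned, 47.1% and 42.2% showed none of the 10 genes, 34.8% and 37.4% showed 1, and 9 and 4 cells showed 5 or more. No cell class in these libraries is known to lack class I RNA, so a background share could not be read from one. Among the 30 gene pairs of pool 1 and 28 of pool 2 for which the product of the shares gave at least 5 cells, the number of cells with UMIs of both genes was above that product in 21 and 22, with median ratios of 1.25 and 1.17. The highest ratio was 2.11, for H2-D1 with Psmb8 in pool 1. These pairs share cells and libraries and are a description only.

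The question of the next comparison was whether tumour cells of different states differ in class I RNA. Among the 9 glial clusters, 9 of the 10 genes differed beyond the spread between pools, all but Tapbp (adjusted p = 0.307). This count stands against a high background, since 69.2% of the 11302 genes tested differed among the clusters. The smallest adjusted p-values were 1.28e-09 for Psme1, 2.07e-09 for B2m and 1.25e-08 for Psme2, and the largest of the 9 was 0.0412 for Tap1. Tests used edgeR's quasi-likelihood fit on held-out counts summed per pool and cluster, with the pool as block. The 10 genes were kept out of the clustering, and the counts tested were not those that formed the clusters.

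**Figure D1:**
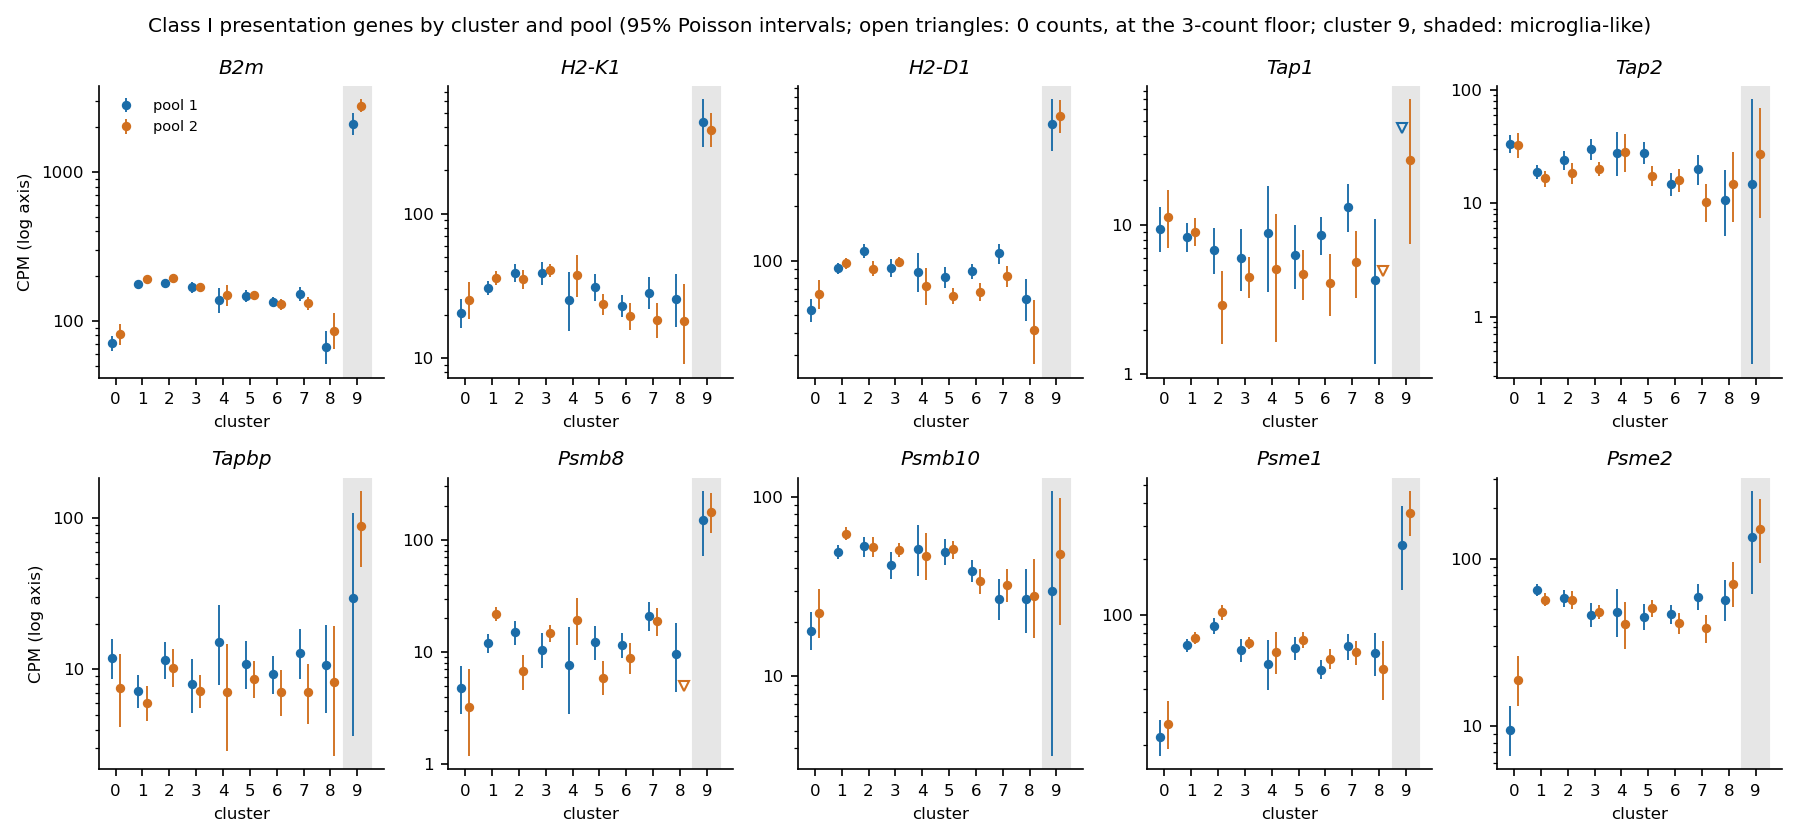
Level of each gene (CPM, log axis) in clusters 0 to 9 of pool 1 (blue) and pool 2 (orange), with 95% Poisson intervals; open triangles mark 0 counts, drawn at the level of 3 counts. B2m lies between 66.5 and 193 CPM in the glial clusters and at 2120 and 2805 CPM in the shaded microglia-like cluster 9.

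B2m showed the order of the clusters most precisely. It was lowest in clusters 0 (70.6 and 81.5 CPM) and 8 (66.5 and 85.8 CPM), whose intervals overlap each other. B2m lay between 129 and 153 CPM in clusters 4 to 7, at 168 and 170 CPM in cluster 3, and highest in clusters 1 (178 and 192 CPM) and 2 (179 and 193 CPM). Clusters 1 and 2 could not be ordered by their intervals, and neither could clusters 4 to 7. In all, 16 of the 90 contrasts of a gene in a cluster with the mean of the other glial clusters were higher and 10 were lower. Over all genes tested, the share called in a cluster ran from 0.283% to 26.0% higher and from 0.0265% to 27.7% lower. All 26 calls had the same sign in each pool, but they were made on these same 2 pools, so this adds no separate support.

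**Figure D2:**
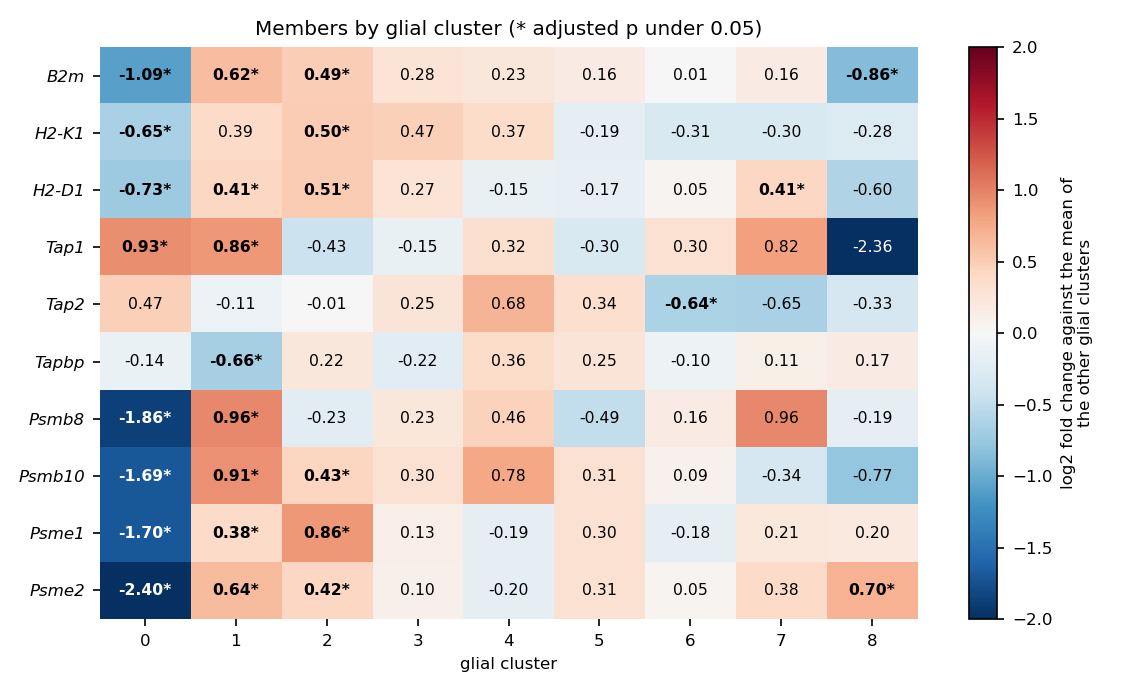
Log2 fold change of each gene in each glial cluster against the mean of the other glial clusters (edgeR; blue lower, red higher, colours saturating at 2 and -2; an asterisk marks an adjusted p under 0.05). Cluster 0 holds 7 of the 10 lower calls and clusters 1 and 2 hold 13 of the 16 higher calls.

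Cluster 0 had the most genes called lower, 7 of 10, with 1 higher (background 27.7% lower and 26.0% higher). The activator gene Psme2 fell by 2.40 ± 0.23 on the log2 scale (5.27-fold lower, adjusted p = 1.76e-10), and its partner Psme1 was lower at -1.7 ± 0.17 (adjusted p = 3.71e-10). The immune subunits Psmb8 (-1.86 ± 0.55) and Psmb10 (-1.69 ± 0.22) were lower too, as were B2m (-1.09 ± 0.12), H2-D1 (-0.73 ± 0.15) and H2-K1 (-0.65 ± 0.23, adjusted p = 0.0185). The transporter went the other way. Tap1 was higher by 0.93 ± 0.39 (adjusted p = 0.0425), and Tap2 stood at 0.47, short of the threshold, with its highest level of any glial cluster in each pool (33.6 and 32.9 CPM). The Tap1 call was lost in 3 of 7 alternatives, with adjusted p-values from 0.0163 to 0.182, and Tap1 differed between pools (log2 0.31 in pool 1 and 2.31 in pool 2).

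The fall in cluster 0 was not limited to immune genes. Of 17 other proteasome genes tested, 16 were lower and 1 was higher, with a median log2 change of -1.58, beside -0.909 for the 10 class I genes and 0.0313 for all genes. Psmb6, Pomp, an assembly factor, and Psma7 were lower by 2.05 ± 0.14, 1.83 ± 0.13 and 1.87 ± 0.13. The constitutive counterparts Psmb5 and Psmb7 were at -1.77 and -1.50. The share of Psmb10 in Psmb10 plus Psmb7 UMIs in cluster 0, 23.7% and 21.99%, overlapped in interval with 21.5% and 22.7% over all glial clusters. Chaperones of class I folding were lower for 3 of 5, led by Calr (-0.99 ± 0.14) and Pdia3 (-0.82 ± 0.15). Depth, Malat1 and mitochondrial share moved with this cluster, and their part in the result was not tested.

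Cluster 1, led by Vgf, Hba-a1, S100a10 and Hmga2, had 7 genes higher and 1 lower (background 21% and 12.1%). Psmb8 was higher by 0.96 ± 0.28, Psmb10 by 0.91 ± 0.12 (adjusted p = 1.05e-06), Tap1 by 0.86 ± 0.31, Psme2 by 0.64 ± 0.12, B2m by 0.62 ± 0.09 (adjusted p = 2.72e-06), H2-D1 by 0.41 ± 0.11 and Psme1 by 0.38 ± 0.10. Tapbp, the chaperone that holds class I molecules at the transporter, was lower by 0.66 ± 0.24 (adjusted p = 0.033; lost in 4 of 8 alternatives, range 0.0284 to 0.0902) and had its lowest level of any glial cluster in each pool, 7.19 and 6.01 CPM. H2-K1 stood at 0.39 and Tap2 at -0.11, and neither passed. The pools differed in size for Psmb8 (0.30 in pool 1 and 2.49 in pool 2) and Tap1 (0.35 and 1.81), and agreed closely for B2m (0.56 and 0.62). In pool 2, 23 cells of this cluster with the interferon response described below held 38 Psmb8 and 20 Tap1 UMIs of the held-out counts. The 469 reference cells without it held 49 and 20. In pool 1, 8 such cells held 0 and 3 UMIs, and 592 reference cells held 44 and 30. The part of these cells in the calls of this cluster, interferon-inducible genes included, was not tested.

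Interferon-inducible genes that were not used to define any state were higher in cluster 1 for 8 of 13 tested and lower for none. Irgm1, an immunity-related GTPase, rose by 1.13 ± 0.16, Ly6e by 0.71 ± 0.12, and the guanylate-binding protein genes Gbp7 and Gbp3 by 0.89 ± 0.19 and 1.46 ± 0.37. Their median was 1.13. Of 19 regulators and interferon receptors tested, 3 were higher and 1 was lower (background 21% and 12.1%). Irf8, an interferon regulatory factor best known from myeloid cells, was higher by 1.02 ± 0.15 (adjusted p = 4.7e-06). The interferon gamma receptor gene Ifngr2 was higher by 0.51 ± 0.14 and Stat3 by 0.35 ± 0.10, and Nfkb1 was lower by 0.45 ± 0.15. The class II genes H2-Ab1 and H2-DMa were higher by 1.71 ± 0.32 and 0.62 ± 0.20, the only 2 of 6 listed class II genes that could be tested. Summed microglial markers in this cluster were at 26.8 and 18.4 CPM, inside the range of the glial clusters (11.6 to 50.5 CPM), and 2 and 5 of the 12 markers were at 0. Summed erythroid markers, among them the haemoglobin gene Hba-a1, were at 0.106 CPM in pool 1 and 263 CPM in pool 2, beside 1.02 CPM or less in the other glial clusters, and their part in the result was not tested. Proteasome genes outside the immune set were also higher, 15 of 17, with a median of 0.608 beside 0.511 for the class I genes.

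Cluster 2, led by S100a4, Rph3a and Pcp4, had 6 genes higher and none lower (background 12.6% and 6.91%). Psme1 led with 0.86 ± 0.11 (adjusted p = 6.84e-07), at 87.1 and 103 CPM, its highest level of any glial cluster. H2-D1, H2-K1 and B2m were higher by 0.51 ± 0.12, 0.50 ± 0.17 and 0.49 ± 0.09, and Psmb10 and Psme2 by 0.43 ± 0.15 and 0.42 ± 0.14. Psmb8 (-0.23) and Tap1 (-0.43) did not pass. Of 13 other interferon-inducible genes 1 was higher (Ly6e, 0.73 ± 0.13) and 1 lower (Samhd1, -0.51 ± 0.19). Irf8 was lower (-1.33 ± 0.25), the only call among 19 regulators and interferon receptors. The class II gene H2-DMa was higher here as well (0.90 ± 0.22, adjusted p = 0.00415), 1 of the 2 tested. The difference from cluster 1 was not itself tested.

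With the shallow clusters 0 and 4 dropped before fitting, 70 contrasts remained. Over these 70 the higher calls went from 15 to 7 and the lower calls from 3 to 4. In cluster 1 B2m (0.50), Psmb10 (0.79), Psmb8 (0.77) and Tap1 (1.07) stayed higher and Tapbp (-0.67) stayed lower, against a background of 14.3% and 10.3%. H2-D1 (0.28), Psme2 (0.27) and Psme1 (0.10) did not pass there. In cluster 2 Psme1 (0.61), H2-D1 (0.40) and B2m (0.38) stayed higher, and H2-K1, Psmb10 and Psme2 did not pass (background 9.08% higher). In cluster 6 Psme1 was called lower (-0.48 ± 0.12, adjusted p = 0.00572) and Tap2 was no longer called (-0.51, adjusted p = 0.141), against a background of 6.13% lower.

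Cluster 8, the committed oligodendrocyte precursor-like cells (70 and 39 cells; Enpp6, Bmp4), had low B2m, lower by 0.86 ± 0.18 (adjusted p = 0.000441, held in all 8 alternatives with a test). Psme2 was higher by 0.70 ± 0.24 (background 10.7% lower and 11.1% higher), and this call was lost without the shallow clusters (adjusted p = 0.232; range over alternatives 0.016 to 0.232). H2-D1 stood at -0.60 and passed only without the shallow clusters (-0.69 ± 0.23, adjusted p = 0.0334). Psmb8 and Tap1 had 9 and 4 UMIs in pool 1 and 0 in pool 2, where 3 counts would be 4.95 CPM, so their changes could not be sized. Interferon-inducible genes were lower for 4 of 13, among them Ly6e (-2.11 ± 0.38) and Irgm1 (-2.77 ± 0.59). Of 19 regulators and interferon receptors, 2 were lower, Irf8 (-2.0 ± 0.54) and Stat3 (-0.94 ± 0.20). The interferon receptor gene Ifnar2 was the 1 called higher (1.49 ± 0.20, adjusted p = 5.55e-07).

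Clusters 6 and 7 were the cycling ones, led by Cdc20 and Ccnb1 and by histone and S-phase genes. Tap2 was lower in cluster 6 (-0.64 ± 0.22, adjusted p = 0.0383; background 6.0% lower and 15.9% higher) and H2-D1 higher in cluster 7 (0.41 ± 0.14, adjusted p = 0.0321; background 16.7% higher and 5.87% lower). Each call was lost in 4 of 8 alternatives, with adjusted p-values from 0.0303 to 0.141 and from 0.0231 to 0.172. Among the non-classical heavy chains, H2-Q7 and H2-Q4 were higher in both cycling clusters, H2-Q7 by 2.11 ± 0.46 and 3.51 ± 0.41 and H2-Q4 by 1.73 ± 0.62 and 2.74 ± 0.62. In clusters 3, 4 and 5 no class I gene passed in edgeR (background 7.04%, 0.283% and 2.46% higher; 3.73%, 0.0265% and 1.46% lower), while 4, 1 and 2 genes were higher at an unadjusted p under 0.05 and DESeq2 called 0.

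Cycling cells were then compared with non-cycling cells of the same cluster. Cells with UMIs of at least 2 of 10 core cycling genes numbered 430 and 299 over all glial clusters, and cells with none 1604 and 1844. The test used the 3 clusters that had at least 5 cells of each kind in each pool. Cluster 6, among them, was itself led by cycling genes and held most of the cycling cells tested. Whether its cells called non-cycling were out of cycle was not tested. In pool 1, clusters 1, 3 and 6 held 33, 11 and 227 cycling cells against 543, 212 and 30 non-cycling cells. In pool 2 they held 14, 9 and 173 against 483, 464 and 23. Psmb10 was the only one of 8 genes tested to pass, lower in cycling cells by 0.95 ± 0.27 (adjusted p = 0.0236; background 1.75% lower and 1.84% higher). In pool 1 it stood at 15.8, 34.2 and 38.2 CPM in cycling cells of clusters 1, 3 and 6, and at 54.5, 36.7 and 47.6 CPM in the non-cycling cells. In pool 2 it stood at 17.8, 13.5 and 35.3 CPM, and at 76.5, 54.2 and 62.9 CPM. The cycling values of clusters 1 and 3 rest on 1 to 3 UMIs each. Psmb10 was lower in 6 of 6 pairs, although the lowest non-cycling value lay under the highest cycling value. The call was lost in 3 of 8 alternatives (adjusted p from 0.0109 to 0.113).

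Psme1 (-0.69, adjusted p = 0.0919) and B2m (-0.38, adjusted p = 0.218) were lower at an unadjusted p under 0.05 and did not pass. H2-D1 stood at 0.15 and Psmb8 at -0.01. The constitutive counterpart of Psmb10, Psmb7, stood at 0.14 (adjusted p = 0.733), and 0 of 17 other proteasome genes passed in edgeR, with 0 at an unadjusted p under 0.05 and 0 by DESeq2. Tap1 and Tapbp were too rare for the filter on low counts and did not pass without it (0.18 and 0.12). Over all glial clusters cycling cells were deeper, with medians of 14933.5 and 17970 UMIs beside 10702.5 and 13222.5, and the part of depth was not tested.

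A small group of tumour cells carried an interferon response, and 5 of 8 class I genes tested were higher in it. These interferon-high cells had UMIs of at least 2 of 10 genes that are no members (Isg15, Ifit1, Ifit2, Ifit3, Rsad2, Usp18, Oasl2, Irf7, Cmpk2 and Ifi44) in training counts thinned to 2000 UMIs, and were 29 cells in pool 1 and 45 in pool 2, or 1.24% and 1.87% of glial cells deep enough. Of them 18 and 28 had exactly 2 genes and so lay at the edge of the definition. Reference cells, with none, numbered 2023 and 2006. In held-out counts the 10 genes together rose from 482 CPM in pool 1 cells with none to 511 with 1 interferon gene, 911 with 2 and 1639 with 3 or more. In pool 2 the steps were 465, 527, 1064 and 2171 CPM.

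**Figure D3:**
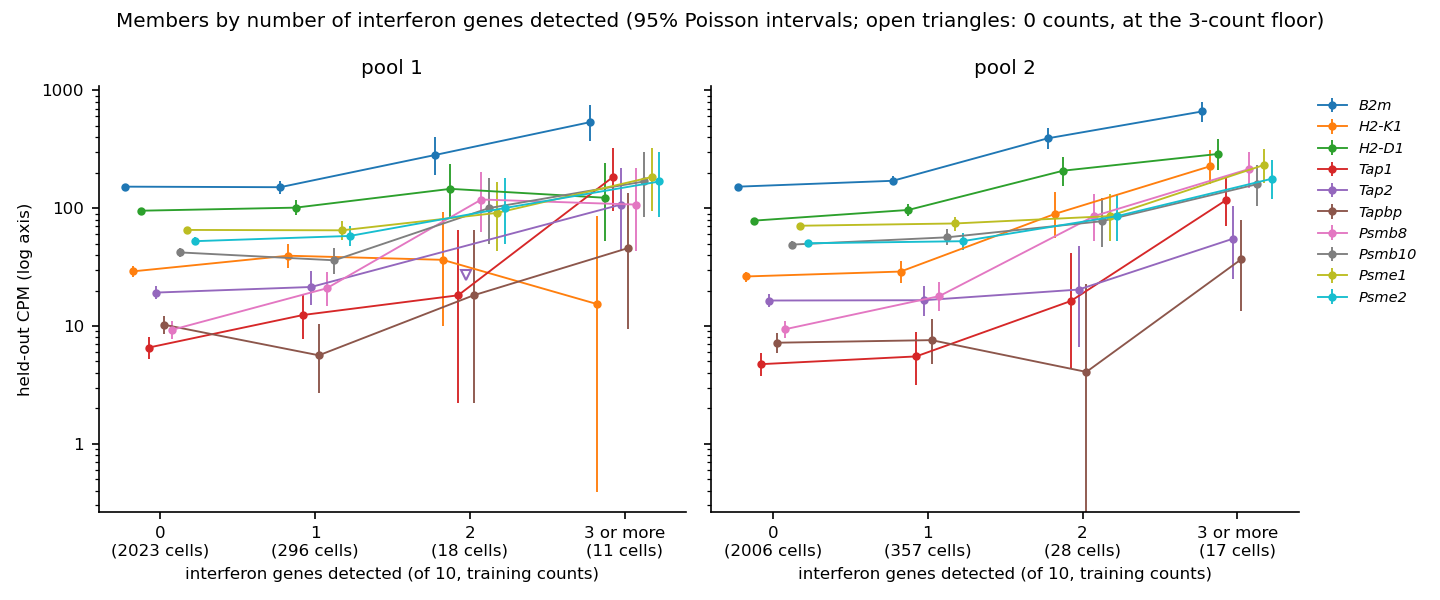
Held-out level of each gene (CPM, log axis, 95% Poisson intervals) in glial cells with 0, 1, 2, or 3 or more of 10 interferon genes detected, in pool 1 (left) and pool 2 (right); the open triangle marks 0 counts of Tap2, drawn at the level of 3 counts. B2m stands at 152 CPM at the left end of each panel, and its right end is at 536 CPM in pool 1 and 662 CPM in pool 2.

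The genes took part to different degrees. Psmb8 was at 9.27 CPM in pool 1 cells with none and at 107 CPM in those with 3 or more. The same values in pool 2 were 9.36 and 215 CPM. Tap1 went from 6.56 to 184 CPM in pool 1, where the upper value rests on 12 UMIs. Its pool 2 values were 4.74 and 116 CPM, the latter on 19 UMIs. In pool 1 H2-D1 was at 95.1 and 122.5 CPM, the latter on 8 UMIs, and H2-K1 in cells with 3 or more rested on 1 UMI, too few to size. In pool 2 H2-D1 went from 78.3 to 288 CPM and H2-K1 from 26.3 to 227 CPM. In cells with 1 interferon gene Psmb8 stood at 20.9 and 17.9 CPM, and B2m at 151 and 171 CPM.

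The test compared high with reference cells within clusters that held at least 5 of each, which left 46 of the 74 high cells: clusters 1 and 2 in pool 1 (8 and 7 cells) and clusters 1 and 3 in pool 2 (23 and 8 cells). Of the 10 genes 8 passed the filter on low counts, and 5 of these were higher and none lower, against a background of 0.481% higher and 0.0458% lower. Psmb8 was higher by 3.17 ± 0.41 (9.0-fold, adjusted p = 4.61e-12), on 0 and 6 UMIs in the high cells of pool 1 and 38 and 7 in pool 2. H2-K1 was higher by 1.95 ± 0.32 (adjusted p = 7.57e-07), at 41.4, 84.2, 173 and 116 CPM in the 4 groups of high cells and between 26.5 and 36.7 CPM in the reference. Its log2 change was 0.62 in pool 1, on 2 and 3 UMIs in the high cells, and 2.25 in pool 2. B2m was higher by 1.36 ± 0.19 (adjusted p = 7.08e-10), at 393, 252.5, 549 and 514 CPM against 159 to 180 CPM, with log2 changes of 0.62 in pool 1 (19 and 9 UMIs) and 1.69 in pool 2. For B2m, H2-K1 and Psme1 the CPM values of the high and reference groups did not overlap. In pool 1 the intervals of H2-K1 and Psme1 in high cells included reference values, and Psme1 rested on 5 and 4 UMIs. Over all 29 high cells of pool 1 H2-K1 stood at 28.6 CPM, on 5 UMIs, beside 29.1 CPM in reference cells.

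Psme1 was higher by 1.11 ± 0.27 (adjusted p = 0.00825), with values of 0.19 in pool 1 and 1.46 in pool 2. H2-D1 was higher by 0.92 ± 0.24 (adjusted p = 0.0353), and this call rested on pool 2: the log2 change was -0.27 in pool 1 and 1.27 in pool 2. The adjusted p ranged over alternatives from 0.000341 to 0.999 for Psme1 and from 8.09e-06 to 1 for H2-D1, and each call was lost in 3 of 10. B2m was called in all 10, Psmb8 in all 9 that tested it and H2-K1 in 9 of 10, the exception being the setting in which 1 interferon gene sufficed (range of its adjusted p 1.53e-12 to 0.114). Psme2 (1.02), Psmb10 (0.92) and Tap2 (0.74) did not pass. Psme2 and Psmb10 were higher in 4 of 4 pairs, with values that overlap the reference. Without the filter on low counts Tap1 was higher by 3.1 ± 0.56 (adjusted p = 1.47e-05, 25 UMIs in high cells, 22 of them in pool 2) and Tapbp stood at 0.86 (adjusted p = 0.955).

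The constitutive subunits Psmb5, Psmb6 and Psmb7 stood at -0.08, -0.23 and 0.13, and 0 of 17 other proteasome genes and 0 of 3 chaperones passed in edgeR. At an unadjusted p under 0.05 these counts were 1 (lower) and 0, and DESeq2 called 0 of either. Psmb9 was below the filter: held-out UMIs in high cells were 0 in pool 1 and 14 in pool 2 (34.3 CPM, against 1.52 CPM in reference cells). Other genes of the response moved alongside. Of 11 interferon-inducible genes outside the definition 9 were higher, among them Parp14 (6.11 ± 0.56), Lgals3bp (5.01 ± 0.58), Rtp4 (3.63 ± 0.42) and Irgm1 (2.57 ± 0.29). The interferon regulatory factor gene Irf9 was higher by 2.08 ± 0.48, and the heavy chain H2-T22, the 1 non-classical gene tested, by 2.09 ± 0.33. The median change was 2.93 for the interferon-inducible list, 1.06 for the 8 class I genes and -0.0854 for all genes.

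Microglial markers did not mark these cells. Their sum was 28.6 and 31.8 CPM in high cells and 32.6 and 18.9 CPM in reference cells, and 10 and 11 of the 12 markers, C1qa, Csf1r and Cx3cr1 among them, were at 0 in the high cells. T and natural killer cell markers were at 0 in high cells of both pools, and macrophage markers at 0 and 2.45 CPM. Oligodendrocyte precursor markers were at 12750 and 10130 CPM, beside 12460 and 11870 CPM in the reference. Median depths were 10691 and 16658 UMIs in high cells and 11237 and 13493 in reference cells.

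Microglia, the resident macrophages of the brain, present antigen themselves and served as a reference for a cell type with high class I. Of the 10 genes 7 were higher in microglia-like cells than the mean of the glial clusters and none lower (background 5.05% and 4.97%). B2m was at 2120 and 2805 CPM, beside 149 and 161 CPM over the glial clusters, and higher by 4.24 ± 0.15 on the log2 scale (adjusted p = 7.79e-27). Psmb8 (149 and 178 CPM) was higher by 3.74 ± 0.69, H2-K1 (433 and 383 CPM) by 3.60 ± 0.38 and H2-D1 (567 and 629.5 CPM) by 2.88 ± 0.28. Psme1 (239 and 356 CPM) was higher by 2.39 ± 0.33 and Psme2 (134 and 150.5 CPM) by 1.61 ± 0.48. Tapbp (29.9 and 89.0 CPM, on 2 and 13 UMIs) was higher by 2.64 ± 0.76. The pool 1 interval of Tapbp, 3.62 to 107.9 CPM, included its glial level of 9.75 CPM. All 7 were called in each of 7 alternatives.

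**Figure D4:**
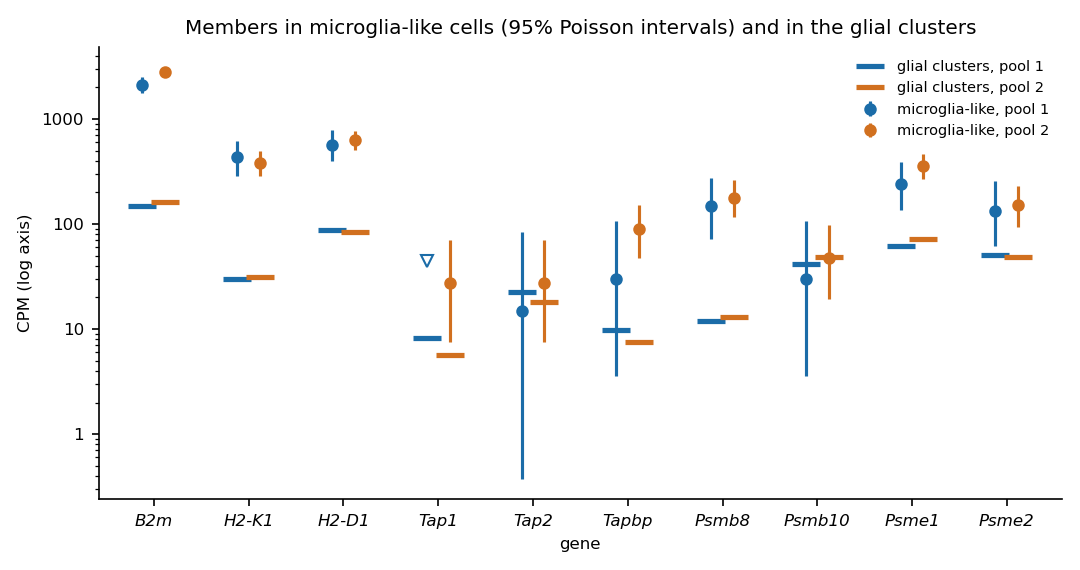
Level of each gene (CPM, log axis) in microglia-like cells (points with 95% Poisson intervals) and over the glial clusters (bars), in pool 1 (blue) and pool 2 (orange); the open triangle marks 0 counts of Tap1, drawn at the level of 3 counts. Points of B2m, H2-K1, H2-D1, Psmb8, Psme1 and Psme2 lie above the bars with their whole intervals, and points of Tap2 and Psmb10 do not.

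Psmb10, on 2 and 7 UMIs, stood at -0.42 ± 0.84 and Tap2, on 1 and 4 UMIs, at 0.60 ± 0.93. Tap1, on 0 and 4 UMIs, stood at 2.33 ± 1.17 (adjusted p = 0.232). With standard errors of 0.84 to 1.17, only large changes of these 3 genes could have been detected. Of 6 pairs of related genes, 2 had shares whose intervals in these cells lay apart from the glial ones in both pools. Psmb8 made up 47.6% (25.7% to 70.2%) and 51.0% (36.6% to 65.2%) of Psmb8 plus Psmb5 UMIs, beside 4.32% and 4.53% over the glial clusters. H2-K1 made up 43.3% and 37.8% of H2-K1 plus H2-D1 UMIs, beside 25.2% and 27.1%. For the other 4 pairs the intervals overlapped the glial ones in at least 1 pool. Psme1 made up 64% and 70.3% of Psme1 plus Psme2 UMIs, beside 55.2% and 59.4%. Psmb10 made up 25% and 36.8% of Psmb10 plus Psmb7 UMIs, beside 21.5% and 22.7%. Psmb9, on 0 and 7 UMIs, made up 0% (0% to 24.7%) and 30.4% (13.2% to 52.9%) of Psmb9 plus Psmb6 UMIs, beside 0.574% and 0.755%, and Tap1 and Tap2 had 1 and 8 UMIs together.

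The median change of all genes in this contrast was -0.656, so that the class I changes are larger by that amount relative to the typical gene. With DESeq2 the median was -0.254, and the calls over all genes moved from 568 higher and 559 lower to 831 higher and 189 lower, while the class I counts stayed at 7 and 0. The part of free microglial RNA in the glial values was estimated from the markers. This assumes that such RNA has the make-up of the microglia-like cells, which was not tested. Microglial markers in the glial clusters were at 0.0771% and 0.0523% of their level in microglia-like cells, and at that ratio such RNA would carry 1.64 and 1.47 CPM of B2m, 1.09% and 0.911% of the glial level. For H2-K1 the same figure was 1.12% and 0.642%, and for the other 8 genes at most 0.973% and 0.712%.

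Other class I pathway genes followed in part. In microglia-like cells regulators and interferon receptors were higher for 5 of 19, led by Irf8 (3.96 ± 0.38), Ifngr1 (3.57 ± 0.39) and Ifngr2 (2.83 ± 0.44), and 6 of 15 interferon-inducible genes were higher, with Ly6e (4.57 ± 0.23) and Bst2 (5.99 ± 0.64). Of the 5 other heavy chains tested, H2-T23 was higher (4.01 ± 0.73). The constitutive subunits Psmb5, Psmb6 and Psmb7 stood at -1.07, -0.68 and -1.62 and did not pass.

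The 10 genes did not move as a block. Over the 18 sums of a pool and a glial cluster, Pearson's r of pool-centred log2(CPM + 1) was 0.849 for B2m with H2-D1, 0.854 for Psme1 with Psme2 and 0.855 for B2m with Psmb10. It was 0.069 for B2m with Tap2, -0.516 for Tap2 with Psme2 and -0.182 for B2m with Tapbp. The genes whose pattern was most like that of the summed class I genes, among 7501 genes of at least 20 CPM on average, were Dbi (r = 0.965), Ckb (0.952), Gng3 (0.942), Grcc10, Uchl1, Ldhb, Serp2, Bsg, Scand1 and Fundc2 (0.925). The most unlike were Arid1a (-0.946), Cpsf6 (-0.944) and Fubp1 (-0.935). These points share libraries, and the shallow clusters weigh on all of them, so the values describe this set of sums only.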

How the data were processed

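Gene expression was measured with the 10x Genomics 3′ chemistry in 2 libraries of 1 group. Per the submitters' processing notes, reads were processed with Cell Ranger 6.0.2, and the builds GRCm38 and mm10 are named. The deposited files hold unnormalized UMI counts for each gene and barcode, whole numbers whose totals differ between libraries. How the authors filtered barcodes is not stated. The members and gene lists were chosen with earlier results of these data known.

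Each count was divided at random (binomial, probability 0.5) into training and held-out counts. Training counts formed the clusters (1000 variable genes without the members and lists, 30 components, 15 neighbours, Leiden resolution 0.8; scanpy 1.11.5, igraph 0.11.9) and the cell states. Sums of held-out counts were formed for each cluster in each pool, with at least 20 cells in each pool (10 for microglia-like cells), or per pool, cluster and state. They were tested with edgeR 4.0.16 (TMM, filterByExpr, quasi-likelihood) in R 4.3.3, with pool, or pool and cluster, as block, on 18, 20, 12 and 8 libraries for clusters, microglia-like cells, cycling and interferon. Adjusted p-values are Benjamini-Hochberg over all genes tested, threshold 0.05, without the genes that formed clusters or states. A value after ± is a standard error unless named otherwise. Levels are CPM of all counts, and of held-out counts for states. Clusters were rebuilt, since no cell annotation was used, and named from marker lists. The pool number pairs sums because cells of 1 pool come from the same 2 tumours. The sums from 1 pool share tumours and cells of the same capture. For clusters and microglia-like cells, p-values therefore measure agreement between 2 pools. For cycling and interferon, clusters of the same pool entered as separate pairs, 6 and 4 pairs in all. Those p-values measure agreement over pairs of pool and cluster, and not between pools. None of the p-values extends to other tumours. Scrublet called 1 and 4 doublets against 2.8% and 2.62% expected, so doublets were not removed; an alternative removed the 98 and 86 highest scores. All 10 members were named in each comparison, and from each list up to 4 genes of smallest p past the threshold. Constitutive counterparts of immune subunits, genes whose calls were lost and the genes most like the members were also named. The fits were also run on simulated counts, drawn independently for each sum, with known changes in more highly expressed genes. Such counts do not cover the shared tumours of the real sums or rare genes such as Tap1. Positions are from GENCODE vM21, in which 98.41% of symbols matched.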

Additional observations from a re-analysis of the deposited data

How the results depend on the processing

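The 7 higher class I genes in microglia-like cells were called in all 7 alternatives. Among clusters, 12 of 26 calls were held in every alternative with a test. The higher calls between clusters numbered 10 with DESeq2 and 9 with no replicate block, from 16. Without the shallow clusters there were 7 higher and 4 lower calls, against 15 and 3 over the same 70 contrasts. With no replicate block, 6 of 10 genes differed among clusters in place of 9. For cycling, the lower calls were 0 with DESeq2, 0 with no replicate block and 2 with all counts in place of held-out counts. For the interferon state, the higher calls were 3 with DESeq2, 8 with all counts, 1 when 1 interferon gene sufficed and 8 with sums per pool, from 5; leaving Ifit2 and Cmpk2 out of the definition, chosen after seeing that they had more UMIs than the others, gave 5. Asking for 3 genes left 2 libraries and no test. A single pool gives values without a test, and H2-D1 in interferon-high cells was 1.27 without replicate 1 (pool 1) and turned to -0.27 without replicate 2 (pool 2). The summed level was 430.5 and 477 CPM as a mean over cells, and the share of cells with a UMI was 32.3% and 35.2% at 1000 UMIs and 80.1% and 81.4% at 4000. The cause of these changes was not tested, beyond fewer libraries, cells or counts. Depth limits Tap1, Tapbp and Psmb8 most. The comparison of cells with Xist and with Y-linked UMIs within a pool could not be made, since no pool listed both.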
